A study of Mus musculus with 10 samples.

Results

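The 10 genes described here were *Klf2*, *Klf4*, *Nos3*, *Cav1*, *Edn1*, *Ece1*, *Ednrb*, *Ace*, *Ptgis* and *Ddah2*. They are flow-responsive transcription factors and endothelial enzymes, receptors and structural proteins that set vessel tone. The list was chosen with earlier results of these data known. All 10 were found among the 46983 genes of the deposited count table. RNA was sequenced from CD31+ cells of the heart, the endothelial cells (ECs) held back by beads coated with antibody to CD31, in male wild-type C57BL/6J mice that were 8 weeks old when they were assigned to a diet. The control diet gave 11.6% of its energy as fat (5 mice) and the ketogenic diet 89.5% (5 mice), each for 14 days, with 1 library per mouse. No mouse carried a transgene, a deletion or a drug treatment. The comparison asked how a diet that raises ketone bodies in blood alters the transcripts of cardiac ECs.

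Endothelial cells sense the drag of flowing blood, and steady flow drives a kinase cascade ending in MEF2 factors that switch on the genes of the zinc finger factors KLF2 and KLF4. These factors in turn raise *Nos3*, the gene of endothelial nitric oxide synthase, and restrain inflammatory genes and *Edn1*. Nitric oxide and prostacyclin relax smooth muscle, whereas endothelin-1 and angiotensin II constrict it.

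Gene counts summed to between 10885154 and 12710861 reads in a mouse. The values had a ceiling. The highest RPKM (reads per kilobase of gene, scaled to the library's total) in a mouse lay between 165 and 190, and 1 read at every start position on both strands would give 157 to 184. A total of 373 genes used at least 50% of their start positions, and the highest share was 104%. For genes near this ceiling the count moves little when the RNA moves, and several of the 10 genes were close to it. Markers of endothelium were high in each library, as *Cdh5* with a mean of 161 RPKM and *Tek* with 93.7 RPKM. Markers of mural cells were high too, as *Rgs5* with 140 RPKM and *Acta2* with 135 RPKM. *Cdh5*, *Rgs5* and *Acta2* used 93.5%, 81.7% and 78.5% of their start positions. Their levels thus lay near the ceiling, and the amounts of endothelial and mural RNA cannot be compared from them. Mouse 1 of the control diet stood apart in macrophage markers, with a summed level of 212 RPKM over 8 genes against 25.0 to 69.8 RPKM in the other 9 mice.

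The promoters of *Klf2*, *Klf4*, *Ace* and *Edn1* are shown because the first 3 genes had lower estimates on the ketogenic diet and were correlated between mice, while *Edn1*, described as a gene that KLF2 restrains, had an estimate near 0. Each sequence is the stretch before the annotated start of transcription, from RefSeq on GRCm38.p6, cut so that it ends before the earlier of the RefSeq and GENCODE starts, on the strand of the gene and read 5′ to 3′. Capitals mark matches to the MEF2 consensus and to CACCC, the core letters bound by KLF factors, on either strand (GGGTG on the other).
Klf2, chr8:72318812-72319032, plus strand: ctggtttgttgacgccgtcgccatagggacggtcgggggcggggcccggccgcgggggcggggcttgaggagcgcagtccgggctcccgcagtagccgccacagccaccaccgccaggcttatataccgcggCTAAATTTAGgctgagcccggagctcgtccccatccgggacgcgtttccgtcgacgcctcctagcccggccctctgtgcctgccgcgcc
Klf4, chr4:55532476-55532725, minus strand: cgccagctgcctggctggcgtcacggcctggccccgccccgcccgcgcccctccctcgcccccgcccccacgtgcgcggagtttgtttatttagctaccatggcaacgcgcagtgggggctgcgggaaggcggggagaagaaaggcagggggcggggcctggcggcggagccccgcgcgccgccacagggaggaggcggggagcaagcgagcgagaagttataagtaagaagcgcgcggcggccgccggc
Ace, chr11:105967698-105967944, plus strand: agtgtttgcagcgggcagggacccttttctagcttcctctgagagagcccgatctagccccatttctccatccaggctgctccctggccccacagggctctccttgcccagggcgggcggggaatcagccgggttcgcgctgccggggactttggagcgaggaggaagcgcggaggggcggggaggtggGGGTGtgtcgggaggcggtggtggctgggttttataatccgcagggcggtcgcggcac
Edn1, chr13:42301226-42301475, plus strand: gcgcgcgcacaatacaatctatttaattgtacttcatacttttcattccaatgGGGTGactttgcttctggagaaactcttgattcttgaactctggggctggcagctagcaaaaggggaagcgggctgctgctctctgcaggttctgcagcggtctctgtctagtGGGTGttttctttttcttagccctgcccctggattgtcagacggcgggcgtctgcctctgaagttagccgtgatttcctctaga

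The *Klf2* promoter held 1 match to the MEF2 consensus, CTAAATTTAG, which begins 118 bases before the RefSeq start. The printed *Klf2* sequence ends at the GENCODE start, which lies upstream of that of RefSeq. A match to this consensus was present in 2.92% of 32851 promoter entries searched over 250 bases on both strands. CACCC was matched once before *Ace* and 2 times before *Edn1*, and 52.0% of all entries hold it. Of the 7 members whose window could be searched, 4 held CACCC and 1 the MEF2 consensus. Entries for *Nos3*, *Ednrb* and *Ptgis* were not used here.

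On the ketogenic diet, the transcript of endothelial nitric oxide synthase fell, and it was the only one of the 10 genes to pass the test in edgeR. *Nos3* was 16.6% lower (95% interval of the fitted change −23.0% to −9.70%). *Ace*, *Klf4* and *Klf2* had lower estimates by 23.6%, 9.65% and 8.88%, none of which passed adjustment over all genes in edgeR. *Ace* was also called by the Wald test of DESeq2, the package the paper used (adjusted p = 0.00825). In edgeR, the estimates of the other 6 genes differed by at most 6.06% in either direction, which does not show that their RNA was unchanged. Of these, *Cav1*, *Ece1* and *Ddah2* used 103%, 86.5% and 77.6% of the start positions of their main transcripts. The 95% interval of *Ptgis* ran from −15.3% to 32.7%. Counts were compared with edgeR's quasi-likelihood test, with Benjamini-Hochberg adjustment over 15949 tested genes, and 1.34% of these genes were called at an adjusted p-value under 0.05 (0.527% as lower). Among the 3759 genes with a mean count in the range of the 10 genes, 2.08% were called (0.878% as lower). The median log2 fold change of the 10 genes was −0.053 and that of all tested genes −0.0057. The former is the midpoint of *Cav1* (−0.062) and *Ece1* (−0.045), whose raw counts differed by only 1.87% and 5.56% between mice. It was thus set largely by the scaling and is no measure of a shift of the list.

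**Figure D1:**
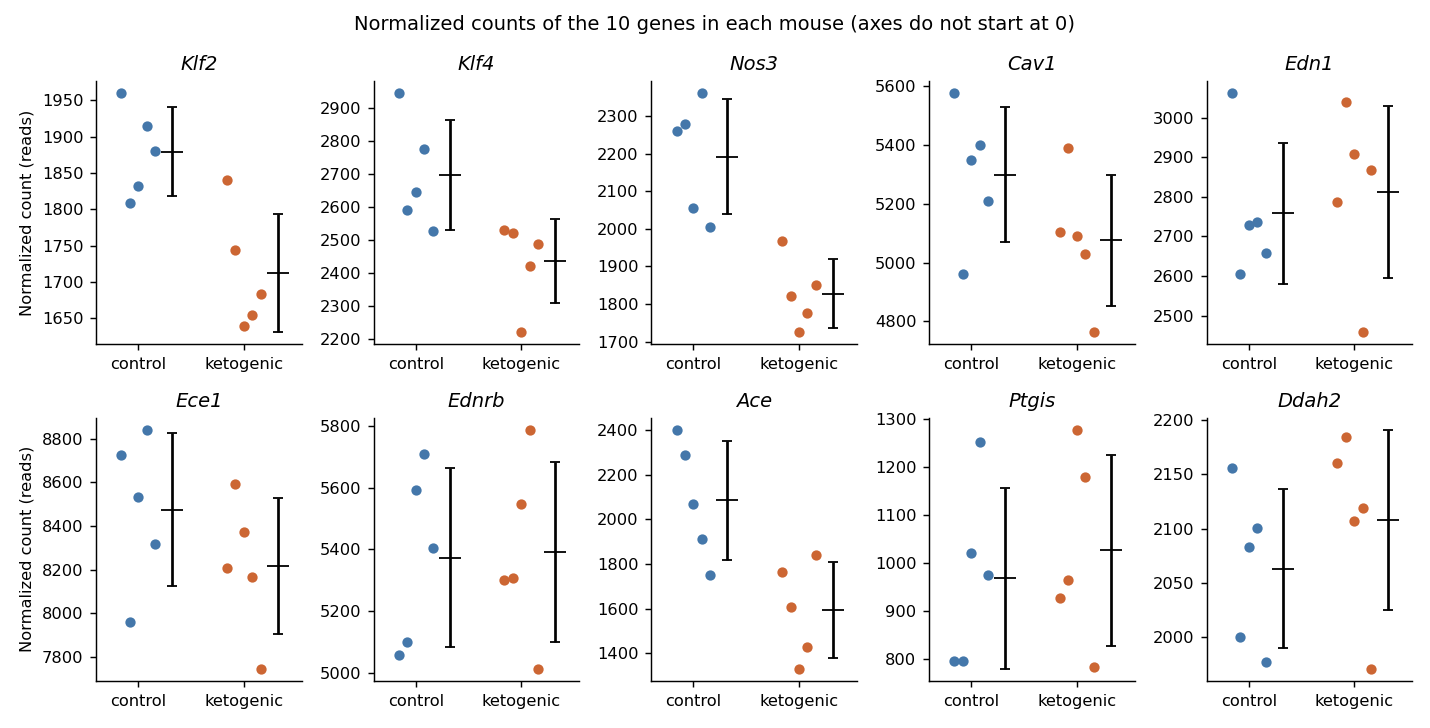
Normalized counts (reads, vertical axis, not starting at 0) of the 10 genes in every mouse, with the control diet in blue and the ketogenic diet in orange. Black bars give the mean and SD of 5 mice, and *Nos3* is the panel in which the highest ketogenic value (1966) lies under the lowest control value (2006).

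*Nos3* (ENSMUSG00000028978.12, chromosome 5 from 24364810 to 24384474, plus strand) makes nitric oxide from arginine in ECs. Its normalized counts were 2259, 2279, 2055, 2361 and 2006 in control mice 1 to 5, and 1966, 1821, 1725, 1776 and 1851 in mice 1 to 5 on the ketogenic diet. All 5 mice on the ketogenic diet were below every control mouse. Such a separation was found in 4.34% of tested genes in either direction and in 1.94% with the ketogenic diet lower. The mean was 2192 ± 154 (SD, n = 5) on the control diet and 1828 ± 91.0 (SD, n = 5) on the ketogenic diet. In the fit, the log2 fold change was −0.26 (SE, the standard error, 0.0527, adjusted p = 0.0375 from edgeR). The two-sided exact permutation test over mice gave p = 0.00794, the smallest that 5 against 5 mice can give. *Nos3* used 22.04% of its start positions, and with counts corrected for filled positions its log2 fold change was −0.29 (adjusted p = 0.0356 from edgeR).

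The call for *Nos3* rested on a narrow margin. Without control mouse 1, 2 or 4, or without mouse 3, 4 or 5 of the ketogenic diet, its estimate ranged from −0.26 to −0.23, with adjusted p-values of 0.0697 to 0.0908 in edgeR. Of 10 cardiomyocyte markers, 10 had higher estimates on the ketogenic diet and none was called. Their summed level was 248 to 315 RPKM in control mice and 291 to 391 RPKM in mice on the ketogenic diet. With each mouse's cardiomyocyte score entered in the fit, *Nos3* had an estimate of −0.14 (unadjusted p = 0.0422, adjusted p = 0.444 from edgeR). Since the markers of the score had higher estimates on the ketogenic diet, the score went partly with the diet, and this fit cannot tell them apart. Over all tested genes, 18 were called with the score, against 213 without it. In bulk RNA, fewer cells of a type and less RNA per cell cannot be told apart. On the opposite strand, *Nos3* shares 294 exonic bases with *Atg9b* and 1040 with *Gm15587*, and the library kit does not record strand. *Atg9b* had 189 to 354 reads per mouse and a log2 fold change of 0.022, and *Gm15587* had 42 to 97 reads and −0.45 (adjusted p = 0.262 from edgeR).

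**Figure D2:**
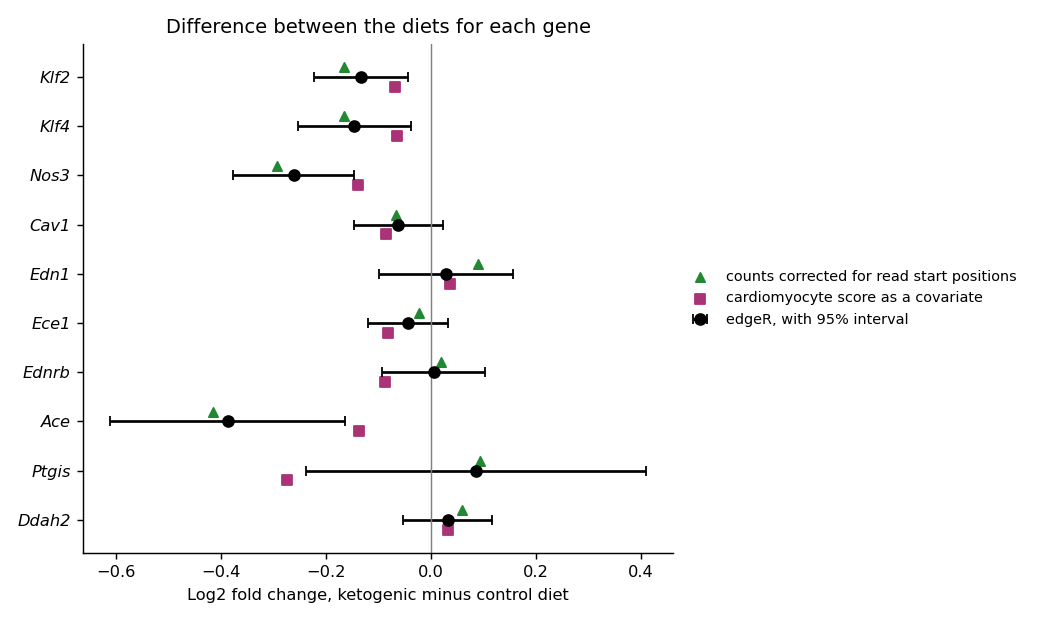
Log2 fold change (ketogenic minus control diet) of each gene from edgeR with its 95% interval (black), with counts corrected for filled start positions (green triangles) and with the cardiomyocyte score in the fit (purple squares). The correction uses the length of every annotated exon, so it cannot undo the ceiling of *Cav1*. The intervals of *Klf2*, *Klf4*, *Nos3* and *Ace* lie below 0, and with the covariate *Nos3* moves from −0.26 to −0.14.

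The flow-responsive factors had lower estimates by similar amounts. *Klf2* (ENSMUSG00000055148.7, chromosome 8 from 72319033 to 72321656) had normalized counts of 1960, 1809, 1832, 1915 and 1881 in control mice 1 to 5, and of 1840, 1744, 1640, 1655 and 1684 in mice 1 to 5 on the ketogenic diet. Mouse 1 of the ketogenic diet lay within the control range and the other 4 below it. The log2 fold change was −0.13 (SE 0.0409, unadjusted p = 0.00665, adjusted p = 0.124 from edgeR), and the exact permutation test gave p = 0.0238. *Klf2* used 48.5% of its start positions, and its log2 fold change was −0.17 after correction for filled positions (adjusted p = 0.102 from edgeR).

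*Klf4* (ENSMUSG00000003032.8, chromosome 4 from 55527143 to 55532466) shares many target genes with *Klf2* in endothelium. Its normalized counts were 2946, 2591, 2645, 2777 and 2528 in control mice 1 to 5 and 2532, 2521, 2221, 2421 and 2489 in mice 1 to 5 on the ketogenic diet. The groups met at a single point, since mouse 1 of the ketogenic diet was just above control mouse 5 and the other 4 were below every control mouse. In the fit, the log2 fold change was −0.15 (SE 0.0495, unadjusted p = 0.0120, adjusted p = 0.155 from edgeR), and the exact permutation test gave p = 0.0159. Estimates that took the cardiomyocyte score into account were −0.069 for *Klf2* and −0.066 for *Klf4*.

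*Ace* (ENSMUSG00000020681.14, chromosome 11 from 105967945 to 105989964) encodes angiotensin-converting enzyme, which sits on the endothelial surface, forms angiotensin II and breaks down bradykinin. It had the largest difference of the 10 genes and also a wide spread. Normalized counts were 2401, 2288, 2068, 1911 and 1752 in control mice 1 to 5 and 1762, 1605, 1329, 1429 and 1838 in mice 1 to 5 on the ketogenic diet. The groups overlapped through control mouse 5 and mice 1 and 5 of the ketogenic diet. The mean was 2084 ± 266 (SD, n = 5) on the control and 1593 ± 215 (SD, n = 5) on the ketogenic diet, a log2 fold change of −0.39 (SE 0.103, unadjusted p = 0.00263, adjusted p = 0.0829 from edgeR). By DESeq2's Wald test the log2 fold change was −0.38 with an adjusted p of 0.00825, and with the cardiomyocyte score in the fit in edgeR it was −0.14 (adjusted p = 0.702). *Ace* used 12.7% of its start positions, so its values lay well under the ceiling.

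Unadjusted p-values under 0.05 were found for 4 of the 10 genes, all with lower counts on the ketogenic diet. Over all tested genes this share was 17.8%, with 9.26% for lower and 8.57% for higher counts. Among genes with mean counts in the same range as the 10 genes, 21.9% had an unadjusted p-value under 0.05. Since the 10 genes were chosen with earlier results of these data known, their share is a description and no test of the list.

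The genes of the endothelin system showed no difference that passed the test. *Edn1* (ENSMUSG00000021367.7, chromosome 13 from 42301476 to 42307990) encodes the precursor of endothelin-1, a strong constrictor. Its normalized counts were 3062, 2606, 2730, 2735 and 2658 in control mice 1 to 5 and 2787, 3039, 2909, 2458 and 2867 in mice 1 to 5 on the ketogenic diet. Control mouse 1 was the highest and mouse 4 of the ketogenic diet the lowest, and the groups overlapped throughout. The log2 fold change was 0.028, with a 95% interval from −0.10 to 0.16 (adjusted p = 0.840 from edgeR). *Edn1* used 59.3% of its start positions, and the estimate was 0.088 after correction for filled positions (adjusted p = 0.604 from edgeR).

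*Ece1* (ENSMUSG00000057530.14, chromosome 4 from 137862237 to 137965229) cleaves the endothelin precursor to its active form. It had the highest RPKM of the 10 genes and used 75.6% of its start positions. Raw counts differed by only 5.56% between the lowest (8077) and the highest mouse (8526), although the totals differed by 16.8%. Normalized counts ranged from 7960 to 8841 in control mice and from 7746 to 8593 in mice on the ketogenic diet. In the fit, the log2 fold change was −0.045 (95% interval −0.12 to 0.032, adjusted p = 0.537 from edgeR).

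*Ednrb* (ENSMUSG00000022122.14, chromosome 14 from 103814625 to 103844402) encodes the endothelin B receptor, which on ECs clears endothelin-1 and triggers nitric oxide release. Its normalized counts were 5059, 5101, 5592, 5709 and 5405 in control mice 1 to 5 and 5300, 5307, 5546, 5787 and 5012 in mice 1 to 5 on the ketogenic diet. Both the highest and the lowest value belonged to the ketogenic diet. The log2 fold change was 0.0046 (95% interval −0.094 to 0.10, adjusted p = 0.971 from edgeR), and its sign changed under several alternatives.

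Prostacyclin synthase, encoded by *Ptgis* (ENSMUSG00000017969.13, chromosome 2 from 167191805 to 167240604), makes the vessel-relaxing prostanoid of the endothelium. Normalized counts were 796, 796, 1022, 1252 and 975 in control mice 1 to 5 and 927, 965, 1278, 1179 and 784 in mice 1 to 5 on the ketogenic diet. *Ptgis* had the widest spread of the 10 genes, with a coefficient of variation of 19.5% on the control and 19.4% on the ketogenic diet. Within each diet, the mice had the same order in *Ptgis* and in summed fibroblast markers (229 to 260 RPKM on the control, 222 to 273 RPKM on the ketogenic diet). *Ednrb* had that order in control mice, and on the ketogenic diet only mice 3 and 4 changed places. These orders were compared after the values were seen, and the part of fibroblasts in these counts was not tested. Its log2 fold change was 0.085, with a 95% interval from −0.24 to 0.41 (adjusted p = 0.805 from edgeR). Entering the score of cardiomyocytes in the fit gave an estimate of −0.27 (adjusted p = 0.608 from edgeR).

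*Ddah2* (ENSMUSG00000007039.12, chromosome 17 from 35059035 to 35062095) is a member of the family of enzymes that break down asymmetric dimethylarginine, an inhibitor of nitric oxide synthases. Normalized counts were 2156, 2000, 2083, 2100 and 1977 in control mice 1 to 5 and 2161, 2184, 2107, 2119 and 1971 in mice 1 to 5 on the ketogenic diet. The groups overlapped over most of their range. In the fit, the log2 fold change was 0.031 (95% interval −0.053 to 0.11, adjusted p = 0.708 from edgeR). The annotated main transcript is 1342 bases long, and the reads would fill 77.6% of its start positions.

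*Cav1* (ENSMUSG00000007655.16, chromosome 6 from 17306335 to 17341452) encodes caveolin-1, the coat protein of caveolae, which binds and restrains endothelial nitric oxide synthase. Its raw counts were 5164, 5203, 5166, 5131 and 5180 in control mice 1 to 5 and 5172, 5154, 5186, 5176 and 5227 in mice 1 to 5 on the ketogenic diet. The highest exceeded the lowest by 1.87%, and the variance within a diet was 0.133 of the mean on the control and 0.143 on the ketogenic diet, where counting alone gives about 1. The table's gene length of 8924 bases includes every annotated exon, and the main transcript of 2522 bases has 5044 start positions over both strands. The counts thus equalled 103% of the main transcript's positions. The log2 fold change after scaling to library size was −0.062 (95% interval −0.15 to 0.022, adjusted p = 0.427 from edgeR), and it was set by the scaling, since the raw count hardly moved. A difference in *Cav1* RNA could not be read from these counts.

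**Figure D3:**
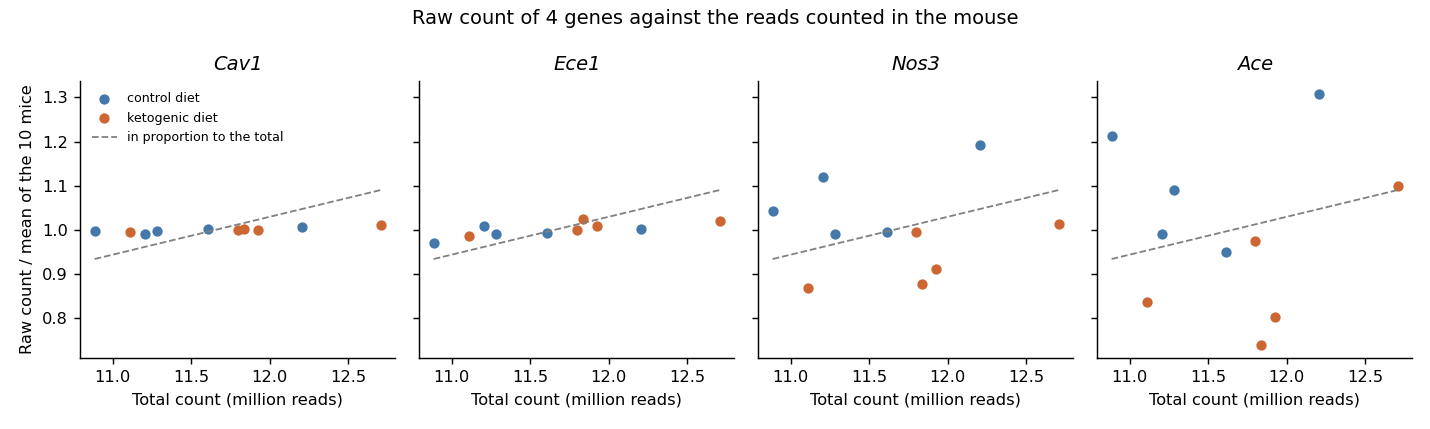
Raw count of 4 genes, divided by its mean over the 10 mice, against the total reads counted in the mouse, with blue for the control and orange for the ketogenic diet. The dashed line is the course of a count in proportion to the total, *Cav1* stays flat with a range of 1.87%, and *Nos3* and *Ace* spread over 37.2% and 77.3%.

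Levels per length were compared in RPKM over all 10 mice. The order was *Ece1* (130 ± 4.73 RPKM, SD, n = 10 mice), *Edn1* (102 ± 6.88 RPKM), *Klf2* (83.4 ± 4.74 RPKM), *Ddah2* (72.3 ± 2.65 RPKM), *Ednrb* (64.5 ± 3.25 RPKM), *Klf4* (49.9 ± 3.57 RPKM), *Cav1* (49.8 ± 2.13 RPKM), *Nos3* (37.9 ± 4.07 RPKM), *Ptgis* (27.3 ± 5.06 RPKM) and *Ace* (21.8 ± 4.02 RPKM). *Klf4* and *Cav1* could not be ordered, since *Klf4* was the higher in 6 of 10 mice. The ranges also overlapped between *Ddah2* and *Ednrb*, between *Nos3* and *Ptgis* and between *Ptgis* and *Ace*. The other neighbours did not overlap in RPKM. This order holds for lengths that include every annotated exon. Counted over the main transcript alone, the share of start positions used was 103% for *Cav1*, 86.5% for *Ece1*, 77.6% for *Ddah2*, 65.5% for *Ednrb*, 65.0% for *Edn1* and 48.5% for *Klf2*, which is another order. The ceiling limits the upper end of this order, and the RPKM of *Cav1* was divided by 8924 bases although its main transcript has 2522.

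The factors and *Nos3* were correlated between mice. Over the 10 mice, the log2 CPM (counts scaled to the library's total) of *Klf2* and *Klf4* were correlated with r = 0.87 (permutation p = 1.80e-04, adjusted p = 0.00306 over 17 pairs) and Spearman's rho = 0.89 (permutation p = 0.00109, adjusted p = 0.00926). *Klf4* and *Nos3* had r = 0.85 (permutation p = 6.80e-04, adjusted p = 0.00578) and rho = 0.92 (permutation p = 5.80e-04, adjusted p = 0.00926). For *Klf2* and *Nos3*, r was 0.86 (permutation p = 0.00240, adjusted p = 0.0102) and rho 0.81 (permutation p = 0.00694, adjusted p = 0.0295). For *Klf4* and *Ace*, r was 0.85 (permutation p = 0.00197, adjusted p = 0.0102) and rho 0.88 (permutation p = 0.00169, adjusted p = 0.00958). *Klf2* and *Ace* had r = 0.76 (permutation p = 0.0122, adjusted p = 0.0414), while rho, at 0.67, did not pass adjustment (permutation p = 0.0375, adjusted p = 0.106).

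These pooled values include the difference between the diets. Without the pair of mice farthest from the median of the first gene, r was 0.78 for *Klf2* with *Klf4*, 0.75 for *Klf2* with *Nos3*, 0.87 for *Klf4* with *Nos3*, 0.63 for *Klf4* with *Ace* and 0.47 for *Klf2* with *Ace*. Leaving out these mice narrows the range of the first gene, so a lower r does not show that a relation rested on them. In deviations from the diet means, which remove the difference between the diets, r over the 10 mice was 0.72, 0.57, 0.67, 0.69 and 0.40 in the same order. With 5 mice per diet, no value was computed within a diet. The values share a library total in each mouse, and with counts corrected for filled positions r was 0.84 for *Klf2* with *Klf4*, 0.87 for *Klf2* with *Nos3*, 0.84 for *Klf4* with *Nos3*, 0.87 for *Klf4* with *Ace* and 0.79 for *Klf2* with *Ace*.

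**Figure D4:**
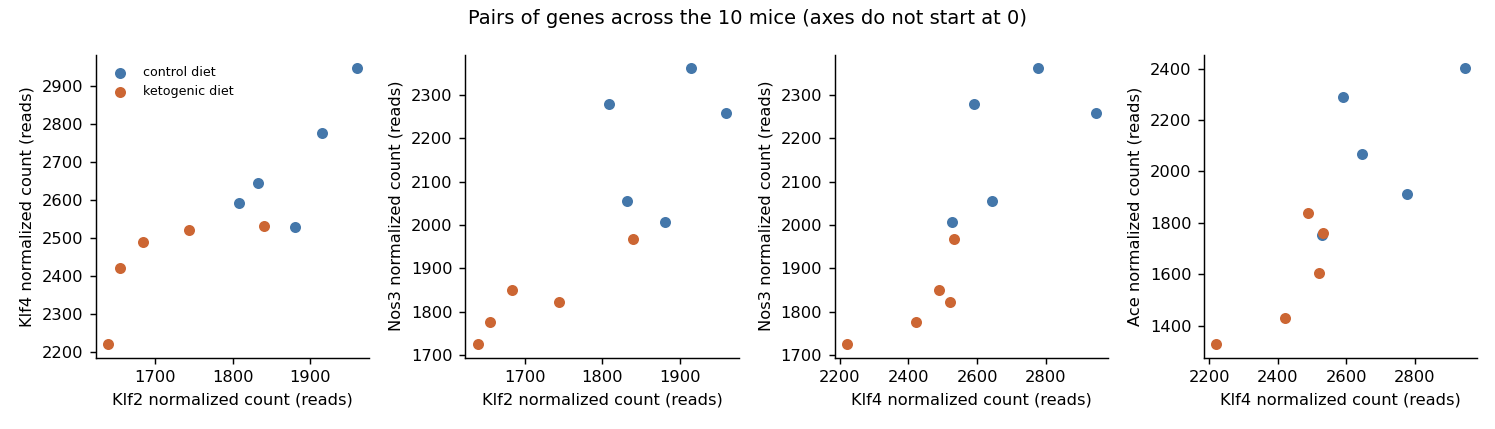
Normalized counts (reads, axes not starting at 0) of 4 pairs of genes, each point 1 mouse, with blue for the control and orange for the ketogenic diet. *Klf2* with *Klf4*, *Klf2* with *Nos3*, *Klf4* with *Nos3* and *Klf4* with *Ace* rise together, and the *Nos3* values of the diets do not overlap.

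Relations with the other genes did not pass adjustment. The highest r among these were those of *Cav1*. It had r = 0.66 with *Klf2* (permutation p = 0.0372, adjusted p = 0.105) and r = 0.62 with *Klf4* (permutation p = 0.0521, adjusted p = 0.126). In deviations from the diet means these were 0.53 and 0.46. The scaled value of *Cav1* was set by the scaling, and the part of shared scaling in the relations of the factors with *Nos3* and *Ace* was not tested. *Edn1* had r = 0.15 with *Klf2* (permutation p = 0.668, adjusted p = 0.749; rho = 0.12, permutation p = 0.758, adjusted p = 0.920) and r = 0.20 with *Klf4* (permutation p = 0.580, adjusted p = 0.743; rho = 0.079, permutation p = 0.837, adjusted p = 0.946). *Ptgis* had r = −0.28 with *Klf2* (permutation p = 0.420, adjusted p = 0.649; rho = −0.24, permutation p = 0.512, adjusted p = 0.792). Leaving out the mice farthest from the median of the KLF gene, r of *Edn1* with *Klf2* was −0.072, that of *Edn1* with *Klf4* 0.14 and that of *Ptgis* with *Klf2* 0.34. In deviations from the diet means, r of *Edn1* was 0.44 with *Klf2* and 0.43 with *Klf4*, and that of *Ddah2* 0.53 and 0.51, so that *Edn1* had values close to the 0.40 of *Klf2* with *Ace*.

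Genes most like 4 of the members were sought among 12377 others, by Pearson's r of deviations from the diet means over the 10 mice. The closest to *Klf2* were *Cdc42ep1* (r = 0.94), *Gm7774* (0.91) and *Pqlc1* (0.90). For *Klf4* they were *Bcl2l1* (0.94), *Fam57b* (0.93) and *Zfp85* (0.93). *Hnrnpm* (0.96), *Nfe2l1* (0.94) and *Josd2* (0.93) were closest to *Nos3*, and *Mob2* (0.91), *2900026A02Rik* (0.90) and *Sarnp* (0.89) to *Edn1*. None of the 12 genes was called between the diets. These values are descriptions, chosen as the highest of many over few mice.

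Among the other genes of these pathways, 1 was called, and over all tested genes the share called was 1.34%. In the KLF family, 12 of 15 other factors were tested, 9 had lower and 3 higher estimates, and none was called. The smallest p-value was that of *Klf7* (log2 fold change −0.074, adjusted p = 0.228 from edgeR). *Klf1*, *Klf14* and *Klf17* had too few reads to test. Of 19 tested genes of flow sensing and of the MEK5-ERK5-MEF2 cascade, 11 had lower and 8 higher estimates and none was called. For 2 of the 11 the raw count differed by less than 5% between the lowest and the highest mouse, which leaves their direction to the scaling. *Kdr*, the VEGF receptor that takes part in sensing flow, had the smallest p-value, with 0.13 (adjusted p = 0.125 from edgeR). *Mef2b* was not tested. Chosen after their values were seen, the kinase genes *Map2k5* (MEK5) and *Mapk7* (ERK5) had estimates of 0.25 and −0.29 (adjusted p = 0.261 and 0.191 from edgeR).

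Of 17 genes described as raised or lowered by KLF2 or KLF4, all were tested, 15 had lower and 2 higher estimates, and none was called. The median log2 fold change was −0.10, against −0.0057 over all tested genes. The list was not tested as a whole and several of its genes lay near the ceiling, so neither the tally nor the median measures a shift. For 3 of the 15 lower genes the raw count differed by less than 5% between the lowest and the highest mouse, so that their estimates were set by the scaling, as for *Cav1*. This limit was chosen after the values were seen. *Angpt2*, which KLF2 is described to restrain, had the smallest p-value (log2 fold change −0.20, unadjusted p = 0.00399 from edgeR, not called after adjustment). Genes that KLF2 raises, such as *Thbd* (thrombomodulin, −0.043) and *S1pr1* (−0.078), used 90.0% and 93.4% of their start positions. The latter pair was chosen after its values were seen.

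In nitric oxide synthesis and signalling, 25 of the 28 listed genes were tested, 13 had higher and 12 lower estimates and none was called. *Ass1*, which regenerates arginine, had the smallest p-value (−0.24, SE 0.0717, adjusted p = 0.111 from edgeR). *Nos1* and *Agxt2* had too few reads, and 1 gene was not analysed here. *Nos2*, the inducible synthase, chosen after its values were seen, had a mean level of 73.2 RPKM, above the 37.9 RPKM of *Nos3*, and an estimate of −0.056 (adjusted p = 0.750 from edgeR). The closest relative of *Ddah2*, *Ddah1*, chosen after its value was seen, had an estimate of 0.048 and 240 to 349 reads per mouse. All 8 other caveola components were tested, 6 lower and 2 higher in estimate, none called, and 3 of the 6 had raw counts within the same limit of 5%. *Cavin4*, a cavin of muscle with 10 to 70 reads per mouse, had the smallest p-value (1.21, adjusted p = 0.111 from edgeR), with an estimate of the same sign as those of the cardiomyocyte markers. *Cav2* and *Cavin2*, chosen after their values were seen, had raw counts of 4951 to 5012 and 5888 to 5955 in all mice, as flat as those of *Cav1*.

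Of 6 other endothelin genes only *Ece2* (−0.20, adjusted p = 0.470 from edgeR) and *Ednra*, the receptor of mural cells (0.056, adjusted p = 0.747 from edgeR, chosen after its value was seen), had enough reads. *Edn2*, *Edn3*, *Mme* and *Kel* had not, so *Edn1* was the only endothelin gene that could be tested. In the renin-angiotensin and kinin system, 9 of 15 genes were tested, 7 with higher and 2 with lower estimates, none called. *Prcp*, a carboxypeptidase that can cleave angiotensin II, had the smallest p-value (0.18, SE 0.0517, adjusted p = 0.0994 from edgeR). *Ren1*, *Agtr1b*, *Agtr2*, *Mas1*, *Bdkrb1* and *Kng1* had too few reads.

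Prostanoid synthesis and signalling held the only call outside the 10 genes in these pathways. *Tbxas1*, the gene of thromboxane synthase, fell by 0.66 on the log2 scale (SE 0.120, adjusted p = 0.0240 from edgeR), from 213 ± 28.7 normalized counts on the control diet to 134 ± 16.97 on the ketogenic diet (SD, n = 5 mice each). Of the 15 tested genes of this list, 11 had lower and 4 higher estimates, and *Ptges* and *Ptger3* had too few reads. Thromboxane synthase is known from platelets and macrophages, and macrophage markers had lower estimates for 6 of 7 tested genes. Their summed level was 25.0 to 212 RPKM on the control and 25.0 to 55.9 RPKM on the ketogenic diet, with *Fcgr1* at 1 to 40 reads. The part of these cells in the *Tbxas1* result was not tested.

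**Figure D5:**
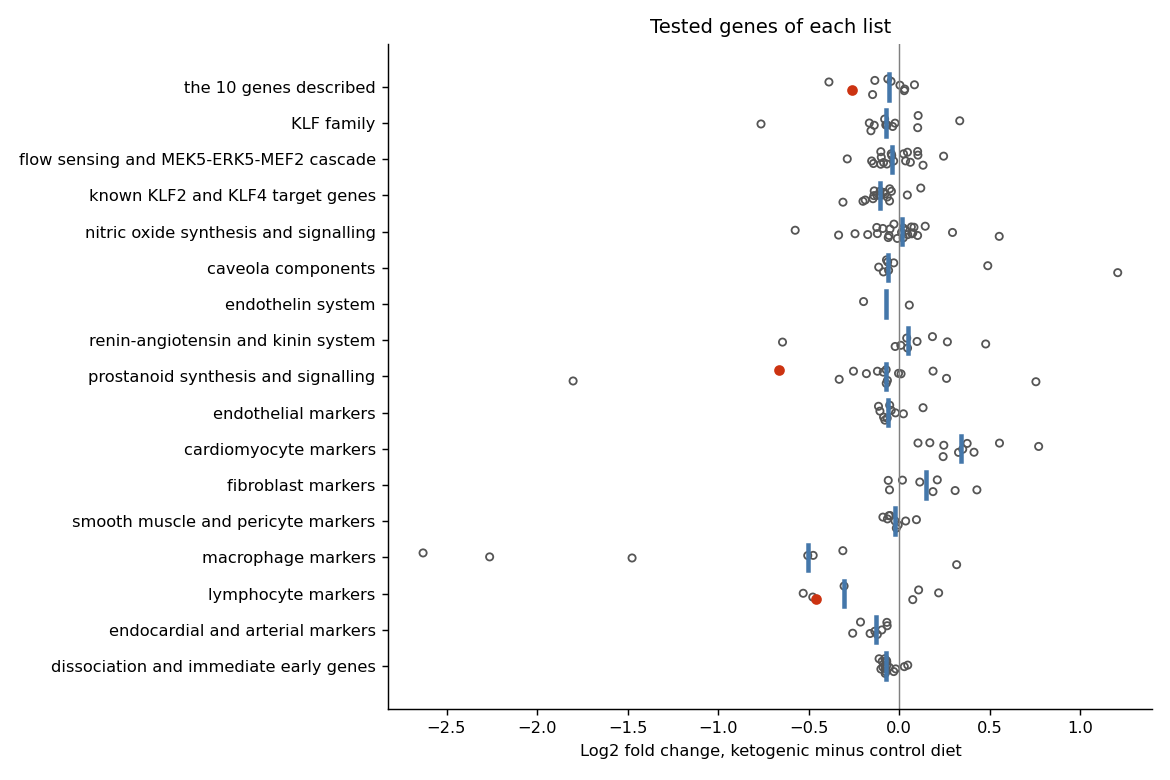
Log2 fold change (ketogenic minus control diet, horizontal axis) of every tested gene of each list, with called genes in red, others as open circles and the median as a blue bar. *Nos3*, *Tbxas1* and *Cd79a* are the red points, and the 10 cardiomyocyte markers all lie above 0.

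Among the marker lists, 1 gene was called (*Cd79a*, of 7 tested lymphocyte markers), and over all tested genes the share called was 1.34%. None of the 10 cardiomyocyte markers was called, with a median log2 fold change of 0.34, and *Mb* had the smallest p-value (0.38, adjusted p = 0.0574 from edgeR). *Actc1* and *Pln*, the markers of the highest level, had 0.35 and 0.25. Endocardial and arterial markers had lower estimates for 8 of 8 genes with a median of −0.13 and none called. *Gja5* had −0.16 (adjusted p = 0.0805 from edgeR) and *Gja4* −0.066. Raw counts of *Gja4* were 2963 to 3059 in all mice, within the limit of 5%, which leaves its estimate to the scaling. The summed level of the 8 markers was 380 to 425 RPKM on the control and 348 to 385 RPKM on the ketogenic diet. The part of these cells in the lower counts of *Nos3*, *Klf2*, *Klf4* and *Ace* was not tested. Among general endothelial markers, 8 of 10 had lower estimates with a median of −0.059, and 4 of these 8 had raw counts that differed by less than 5% between mice, which leaves their estimates to the scaling.

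Lymphocyte markers had a median of −0.30 over 7 genes, of which *Cd79a*, a B cell receptor chain, fell by 0.46 (adjusted p = 0.0221 from edgeR), and *Cd79b* had −0.30. All 4 lower members are B cell genes, and the T and NK cell genes *Cd3e*, *Cd3g* and *Nkg7*, chosen after their values were seen, had 0.11, 0.22 and 0.075. The median of 8 fibroblast markers was 0.15, with *Dcn* at −0.053, *Lum* at 0.018 and *Dpt*, of the smallest p-value, at 0.43 (adjusted p = 0.396 from edgeR), and that of 9 smooth muscle and pericyte markers −0.022, with none called in either list. *C1qb* and *Cd68* had the highest levels of the macrophage markers, with estimates of −1.48 and −0.50, and *Adgre1* had the smallest p-value (−2.63, adjusted p = 0.183 from edgeR). *Klf2* and *Klf4* are also known to be induced when tissue is digested. Of 17 dissociation and immediate early genes, 15 had lower and 2 higher estimates with a median of −0.073, none was called, and *Jun* had the smallest p-value (−0.11, adjusted p = 0.111 from edgeR). Raw counts of 7 of the 15 differed by less than 5% between mice, so their direction was set by the scaling and the tally is no measure of this response. Their summed level was 1591 to 1723 RPKM on the control and 1508 to 1802 RPKM on the ketogenic diet, with *Ier3* at 98.3% and *Nr4a1*, chosen with *Ier3* after their values were seen, at 99.7% of their start positions. The part of this response in the counts of *Klf2* and *Klf4* was not tested.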

How the data were processed

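The authors sequenced SMART-Seq v4 libraries as single reads. Per the labels, the processing tools were bcl2fastq 2.17.1.14, STAR 2.3 and HTSeq 0.6.0 with the mm10 genome. The annotation release and any removal of duplicate reads are not given in the sources used here. The table deposited by the authors holds raw counts per gene, and beside it RPKM values in which length and library total are divided out. Every column was matched to its sample by title.

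Symbols, positions and main transcripts came from GENCODE M21 on GRCm38, in which 46488 of 46983 identifiers were found when the version was ignored. Counts were tested with edgeR 4.0.16 in R 4.3.3 (TMM factors, filterByExpr, quasi-likelihood F-test) across 15949 genes, and the test was checked on simulated data. Normalized counts are counts divided by the TMM-scaled library size and multiplied by its mean. Log2 CPM used a prior count of 2. Each gene was also compared by an exact permutation test over 252 regroupings, with no adjustment over the 10 genes. Correlations used 100000 permutations. Start positions are 2 for each base of gene length, and the correction for filled positions takes each read as 1 position drawn at random. Gene length includes every annotated exon. The correction therefore took *Cav1* as 29.0% filled, *Ddah2* as 42.1% and *Ednrb* as 37.6%, against 103%, 77.6% and 65.5% of their main transcripts. For such genes it may be too small. A mouse's cardiomyocyte score is the mean z-score of 10 markers.

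Alternatives were DESeq2 1.42.0 and its size factors, upper quartile factors, library size alone, other filters, limma 3.58.1 on log2(RPKM + 1) and log2(RPKM + 0.1), a replicate block, the covariate, the correction for filled positions, and each mouse left out. For correlations and permutation tests this correction was added after the data had been seen. The members and lists were chosen with earlier results of these data known. Named genes are the members, in each list the called genes or that of the smallest p-value, untested genes where at most 6, the 2 markers of the highest level, and the 3 genes most like *Klf2*, *Klf4*, *Nos3* and *Edn1*. Any other gene is said to have been chosen after its values were seen. Intervals cover the spread between mice only.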

Additional observations from a re-analysis of the deposited data

Results flagged for a closer look

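The normalized count of *Edn1* in mouse 1 of the control diet, 3062, stood apart from the other 4 control mice. The nearest was 2735 and the lowest 2606, so that the gap was 0.716 of the range, above Dixon's critical ratio of 0.71. Chance marks about 1 in 20 groups (1.4 of the 28 examined), and this was the only one among them. The groups examined were the counts of the described genes, the totals, and the summed endothelial, cardiomyocyte and dissociation genes. The macrophage sum was not examined. Without this mouse the log2 fold change of *Edn1* was 0.068 (adjusted p = 0.596 from edgeR). The same mouse had the highest summed level of macrophage markers, 212 RPKM. The part of these cells was not tested.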

How the results depend on the processing

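Each gene's log2 fold change was recomputed under 21 alternatives, 10 of which left out 1 mouse, and 5 of the 10 genes (*Klf2*, *Klf4*, *Cav1*, *Ece1* and *Ddah2*) kept their direction and stayed on the same side of the threshold under all of them. For *Cav1* this follows from its flat raw count. Raw counts of *Ece1* differed by only 5.56% between mice, so its direction was set largely by the scaling. *Nos3* stayed lower under all 21 and was called under 13, with −0.14 under the covariate, −0.26 under the block and −0.29 to −0.23 with a mouse left out (past the threshold in 4 of 10). *Ace* was called only by DESeq2 (−0.38), the package the paper used. *Ednrb* turned to −0.011 with upper quartile factors and −0.088 with the covariate, and lay between −0.022 and 0.035 with a mouse left out. *Ptgis* turned to −0.27 with the covariate, and lay between −5.75e-04 and 0.19 with a mouse left out, the lowest without mouse 3 of the ketogenic diet. *Edn1* lay between −7.07e-04 and 0.073 with a mouse left out and reached 0.088 with corrected counts, the lowest without mouse 2 of the ketogenic diet. The number of the 10 genes called was 2 with DESeq2, 0 with the block, 0 with the covariate, and 0 to 1 with a mouse left out. Over all genes, 213 were called, against 815 with DESeq2, 113 with the block, 18 with the covariate, and 86 (without control mouse 2) to 492 (without mouse 2 of the ketogenic diet) with a mouse left out. The cause was not tested. The r of *Klf2* with *Ddah2* turned to −0.075 with RPKM and −0.23 with corrected counts, which also gave −0.074 for *Klf2* with *Edn1* and −0.064 for *Klf4* with *Ddah2*. All 10 permutation results were kept.

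The replicate numbers share no stated origin, and deviations of same-numbered mice had correlations from −0.21 to 0.085, so the pairing was not used. No mouse correlated best with its own number. With the replicate block, *Nos3* had an adjusted p of 0.0623 from edgeR.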
